A study of Mus musculus with 12 samples.

Results

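Promoter accessibility was compared between DN1 cells and DN2b cells, the earliest and the latest of the T cell precursor stages sampled in culture on a high density of Notch ligand. A protein-coding gene was scored as having an open promoter in a library when a DNase I hypersensitive site (DHS, a 150 bp peak) had its midpoint no more than 1 kb from the gene's start. Promoters open in both DN2b libraries and in neither DN1 library were counted as opened, and the reverse pattern as closed. Of 21755 promoters, 239 were opened and 151 closed in the lists as deposited, and 40 opened and 32 closed promoters kept their pattern when every list was shortened to its 32952 highest-scoring peaks. The description below centres on these 72 promoters.

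All libraries came from C57BL/6J mice, and no group carried an engineered allele. LSK cells (lineage-negative, SCA1-positive, KIT-positive marrow cells, which include the blood stem cells) were grown on immobilized Delta1ext-IgG, the extracellular part of a Notch ligand, with 4 growth factors (SCF, FLT3 ligand, IL-6 and IL-11). Sorting gave DN1 cells (KIT++CD44+CD25-) from cultures without IL-7. Cultures to which IL-7 was later added gave the DN2a (KIT++CD44+CD25+) and DN2b cells (KIT+CD44lo CD25+). The paper also states that the stages were harvested in sequence. Stage, IL-7 and time in culture therefore cannot be told apart in any DN1 and DN2b difference. The series also holds 3 libraries of fresh LSK cells, 2 of DN2a cells and 3 of LSK cells kept on human IgG without ligand. The methods take the DN populations from each LSK isolate, so a DN1 and a DN2b library can share an isolate, and the labels do not say which do.

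Notch receptors are cut after binding a ligand on a neighbouring cell, and the released intracellular part joins the DNA-binding protein RBPJ to switch on target genes. In the early thymus this signal turns progenitors away from the myeloid and B cell fates, and strong signalling is needed to pass from DN1 to DN2. DN2 cells gain CD25, start to express CD3 genes and, at DN2b, commit to the T lineage under BCL11B, while progenitor and myeloid genes are shut down. DNase I cuts DNA where nucleosomes are displaced, so a peak marks accessible DNA and not transcription.

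The sequences of opened and closed promoters are given first, since accessible DNA is what was measured. Each is the part of the highest-scoring peak that lies outside exons, read from the mm10 reference on the gene's strand, in lower case with searched motifs in capitals. Letters were searched on both strands, so the capitals show either the motif or its reverse complement. The ETS family, to which several T cell and myeloid regulators belong, was searched as AGGAAG. The RUNX family was searched as TGTGGT. The GATA family, which includes the T cell factor GATA3, was searched as AGATAA. For AP-1, a dimer of FOS and JUN proteins, the letters were TGANTCA. For the T cell factors TCF1 and LEF1 they were CTTTGA. The longer motif of PU.1, a myeloid ETS protein, was GAGGAAGT and contains the ETS letters. A match of letters describes the sequence and is not evidence of a bound factor. The 5 opened promoters shown belong to T cell genes: Il2ra at chr2:11642737-11642806 (plus strand), Cd3g at chr9:44980432-44980546 (minus), Tnfsf11 at chr14:78308057-78308206 (minus), Ltb at chr17:35194317-35194438 (plus) and Il21r at chr7:125603337-125603428 (plus).
Il2ra: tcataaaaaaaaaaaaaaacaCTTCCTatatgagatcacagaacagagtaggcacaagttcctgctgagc
Cd3g: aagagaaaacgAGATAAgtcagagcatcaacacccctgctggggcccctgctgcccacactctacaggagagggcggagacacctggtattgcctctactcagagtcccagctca
Tnfsf11: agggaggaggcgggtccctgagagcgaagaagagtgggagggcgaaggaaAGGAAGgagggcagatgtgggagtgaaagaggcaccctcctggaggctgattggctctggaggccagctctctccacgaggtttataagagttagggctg
Ltb: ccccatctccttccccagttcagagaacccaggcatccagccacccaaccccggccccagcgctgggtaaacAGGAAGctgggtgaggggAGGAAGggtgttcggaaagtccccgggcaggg
Il21r: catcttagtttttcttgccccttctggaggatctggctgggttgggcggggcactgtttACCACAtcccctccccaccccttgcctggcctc

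The 4 closed promoters shown belong to genes of innate immune cells: Prg3 at chr2:84988117-84988214 (plus), Ccl24 at chr5:135573117-135573266 (minus), C3ar1 at chr6:122856162-122856286 (minus) and Clec5a at chr6:40585822-40585946 (minus). Clec5a holds ETS letters at 2 places, and Ccl24 holds the longer PU.1 letters.
Prg3: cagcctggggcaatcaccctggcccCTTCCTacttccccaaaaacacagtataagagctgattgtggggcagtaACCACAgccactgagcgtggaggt
Ccl24: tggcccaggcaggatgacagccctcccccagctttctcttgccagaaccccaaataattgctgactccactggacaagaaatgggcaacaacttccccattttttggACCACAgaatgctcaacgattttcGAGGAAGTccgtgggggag
C3ar1: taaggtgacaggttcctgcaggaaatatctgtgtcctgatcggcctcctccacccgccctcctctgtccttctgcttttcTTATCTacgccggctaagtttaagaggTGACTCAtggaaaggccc
Clec5a: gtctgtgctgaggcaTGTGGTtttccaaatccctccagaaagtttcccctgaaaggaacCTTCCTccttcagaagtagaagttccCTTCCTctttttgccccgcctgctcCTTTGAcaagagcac

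List length differed within both stages, and read depth is unknown because only peak lists were used. DN1 replicates 1 and 2 held 96436 and 69391 peaks on chromosomes 1 to 19 and X, and DN2b replicates 1 and 2 held 61484 and 111582. Open promoters numbered 11885 and 10914 in DN1 (11400 ± 687, SD, n = 2) and 11013 and 12421 in DN2b (11717 ± 996, SD, n = 2). The ranges overlapped, and a two-sided exact permutation test over the 6 divisions of the libraries gave p = 0.667. At equal list lengths the counts were 9453 and 9374 in DN1 and 9704 and 9671 in DN2b, a difference of 274 without overlap, for which the exact permutation test gave 0.333, the smallest p that 2 against 2 libraries allow. No comparison of a single value between these groups by that test can therefore pass 0.05. Of 4 Y-linked promoters, 3 were open in DN1 replicate 1 and 2 in DN2b replicate 1, and none in the other DN1, DN2a and DN2b libraries, so the replicates of each stage differ in this respect too.

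Most promoters did not change: 10193 were open in all 4 libraries and 8741 in none. In DN1, 1142 promoters were open in replicate 1 alone and 171 in replicate 2 alone. In DN2b, 78 were open in replicate 1 alone and 1486 in replicate 2 alone. Promoters open in 1 of 2 replicates thus numbered 1313 in DN1 and 1564 in DN2b, most of them in the longer list of the stage, and at equal list lengths they numbered 629 and 603.

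The 239 opened promoters were 1.1% of all promoters, and the 331 opened at equal list lengths were 1.52%. The 40 shared promoters, 0.184% of all, made up 16.7% of the first list and 12.1% of the other. Every one of the 199 promoters opened only in the deposited lists had a DN2b peak below the rank limit, in both DN2b libraries for 167 of them. Every one of the 291 opened only at equal lengths had a lower-ranked DN1 peak, in both DN1 libraries for 205 and in DN1 replicate 1 alone for 74. The counts also depended on single libraries, since leaving out a library relaxes the rule. Opened promoters numbered 914 without DN2b replicate 1, 683 without DN1 replicate 1, 298 without DN1 replicate 2 and 283 without DN2b replicate 2. Those opened in both settings numbered 151 without DN1 replicate 1, 67 without DN2b replicate 2, 64 without DN2b replicate 1 and 56 without DN1 replicate 2.

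The 151 closed promoters were 0.694% of all, the 194 closed at equal lengths were 0.892%, and the 32 shared ones were 0.147%. The shared ones made up 21.2% of the deposited list and 16.5% of the other. All 119 promoters closed only in the deposited lists had a DN1 peak below the rank limit. All 162 closed only at equal lengths had a lower-ranked DN2b peak, in DN2b replicate 2 alone for 57 of them. Closed promoters numbered 533 without DN2b replicate 2 and 458 without DN1 replicate 2, and those closed in both settings numbered 113 without DN2b replicate 2.

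Peak strength was expressed as a percentile, the rank of the score of a promoter's highest peak among all peaks of its library, with 100 for the highest. A percentile depends on list length, since a longer list with more weak peaks raises it for the same peak, and members were selected on it in DN1 or DN2b but not in DN2a, LSK or IgG cells. Opened promoters had weak peaks in general. The median percentile of the 239 was 28.2 in DN2b replicate 1 and 52.2 in DN2b replicate 2, against 85.3 and 92.0 over all 10935 promoters open in both. The 40 that held in both settings had medians of 66.7 and 80.3, since the rank limit lay at percentile 46.4 in DN2b replicate 1 and 70.5 in DN2b replicate 2. Closed promoters were similar, with DN1 medians of 41.7 and 33.1 for the 151 and 77.5 and 70.6 for the 32. Nearest the limit among the opened was Gm4707, at 49.0 and 73.7. Cd247, which encodes the zeta chain of the T cell receptor complex, fell outside the limit. Cd247 had no DN1 peak and percentiles of 40.5 and 75.6 in DN2b, so it was lost at equal lengths through replicate 1.

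**Figure D1:**
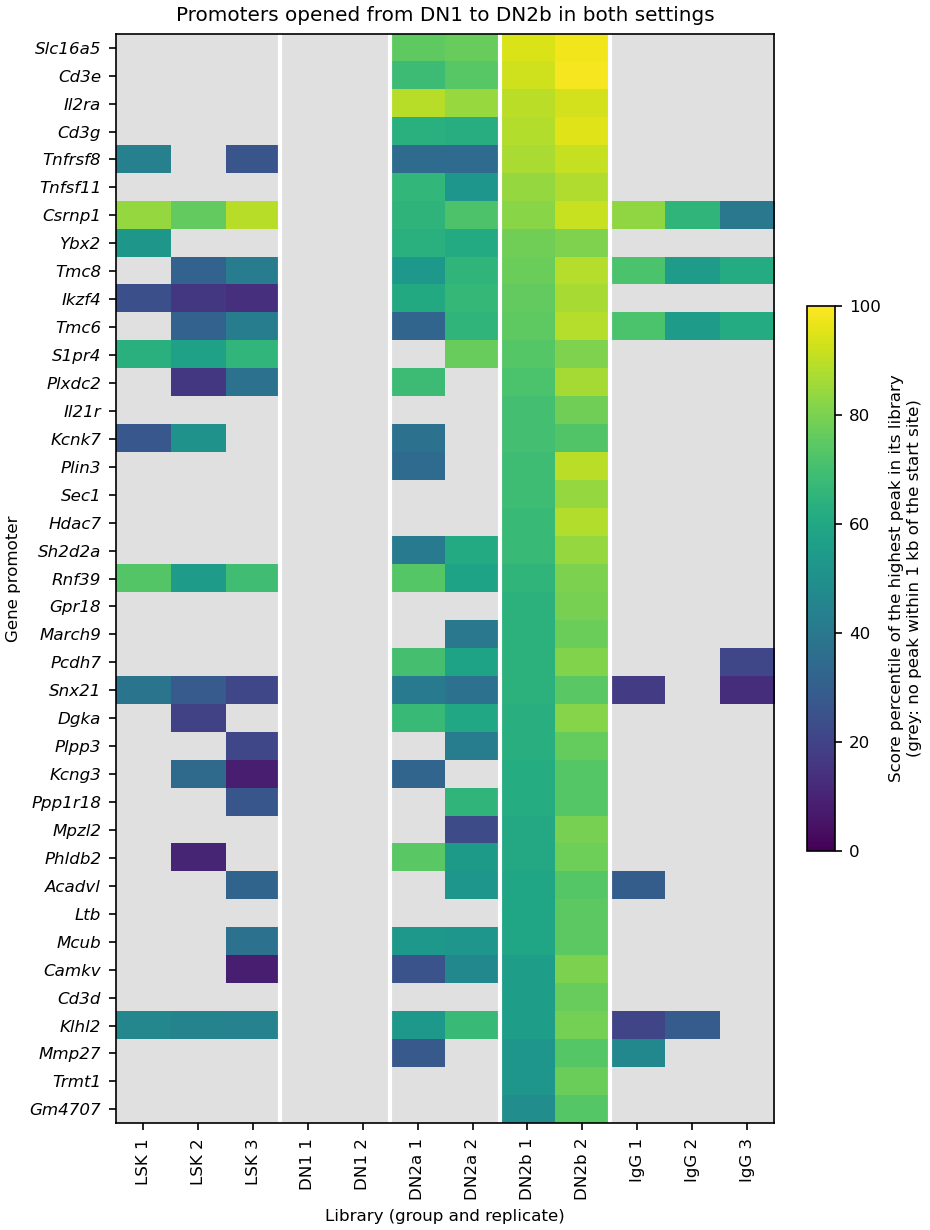
Score percentile of the highest peak within 1 kb of the start site for 39 of the 40 promoters opened in both settings (rows, ordered by the lower DN2b percentile) in all 12 libraries (columns), with grey for no peak. Slc16a5, Cd3e, Il2ra and Cd3g stand at the top with no peak in any LSK, DN1 or IgG library, whereas 6 promoters such as Csrnp1 and Rnf39 have peaks in all 3 LSK libraries.

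Cd3e and Cd3g, which encode parts of the CD3 complex that carries the signal of the T cell receptor, were among the 4 opened promoters with the highest DN2b percentiles. Cd3e had no peak in either DN1 library and percentiles of 92.7 and 98.8 in DN2b, with the peak in an intron 355.5 bp inside the gene. Cd3g stood at 88.4 and 95.2 in DN2b, and its peak was centred 40.5 bp upstream of the start site. Cd3d stood lower, at 55.9 and 76.8. Cd3g and Cd3d are transcribed in opposite directions from start sites 1355 bp apart, and they had separate peaks. In DN2a, Cd3e was at 68.5 and 74.1, Cd3g at 63.6 and 62.5, and Cd3d had no peak in either DN2a library. None of these 3 promoters had a peak in any LSK or IgG library, and when every protein-coding transcript start was used Cd3d was no longer counted as opened.

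Several opened promoters belong to cytokine receptors and ligands, grouped here by known role and not by a test. Il2ra encodes CD25, the marker on which DN2 cells were sorted, so its promoter checks the sort and is not an independent result. It was absent from both DN1 libraries and stood at 89.8 and 93.0 in DN2b and 89.4 and 84.7 in DN2a. Its DN2b peaks, centred 175.5 bp upstream and 4.5 bp downstream of the start site in replicates 1 and 2, differed in place, and the printed sequence is from the replicate 2 peak, which spans the start site. Il21r, the receptor for IL-21, which shares the common gamma chain with the IL-2 receptor, stood at 69.9 and 78.5 in DN2b and had no peak in any DN1, DN2a, LSK or IgG library. Tnfrsf8, which encodes the activation marker CD30, stood at 87.5 and 91.0 in DN2b but only 34.9 and 35.1 in DN2a, and it had peaks in 2 of 3 LSK libraries. Tnfsf11, which encodes the ligand RANKL, stood at 84.1 and 88.2 in DN2b and 66.1 and 52.5 in DN2a. Its nearest DN2b peaks lay 88.5 bp from the start site, and the nearest peak in DN1 replicate 1 lay 1111.5 bp from it. In DN2b replicates 1 and 2, 1 of 2 and 1 of 3 Tnfsf11 peaks overlapped a DN1 peak outside the window. Ltb, which encodes lymphotoxin beta, was at 59.0 and 75.0 in DN2b and in no library of another group. Within 2.5 kb of the start site Ltb had peaks in DN1 as well, the nearest 1267.5 bp away.

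Further opened promoters belong to genes with known roles in T cells, chosen from the 40 and not tested as a group. Sh2d2a, which encodes a T cell adaptor protein, stood at 67.9 and 84.2 in DN2b and 41.4 and 61.0 in DN2a. Dgka, a kinase that removes the messenger diacylglycerol, stood at 63.1 and 82.0 in DN2b and 67.3 and 59.5 in DN2a, and these DN2a and DN2b percentiles overlapped. Hdac7, a histone deacetylase of thymocytes, stood at 67.9 and 88.6 in DN2b and had no peak in any other library. With every transcript start counted, Hdac7 was also open in 1 DN1 library. S1pr4, a sphingosine 1-phosphate receptor of lymphoid cells, stood at 73.6 and 80.6 in DN2b, in only 1 DN2a library (76.8), and at 57.2 to 65.6 in the 3 LSK libraries. Mpzl2, a thymic adhesion molecule, stood at 60.5 and 79.6 in DN2b and at 22.9 in 1 DN2a library.

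Other strong members belong to genes of varied roles. Slc16a5, of the monocarboxylate transporter family, had the highest lower percentile of all, 94.5 and 97.7 in DN2b with 75.4 and 76.8 in DN2a, and no peak in LSK, DN1 or IgG cells. Its peak lay in a coding exon 197.5 bp inside the gene in replicate 2. Ikzf4, an Ikaros family transcription factor, stood at 76.0 and 87.1 in DN2b and 60.9 and 66.5 in DN2a, and had weak peaks (13.3 to 24.2) in the LSK libraries. Csrnp1, a nuclear protein gene, stood at 82.3 and 91.7 in DN2b and was also open at 76.0 to 89.3 in LSK cells and 40.0 to 83.5 in IgG cells, so DN1 was the only group of the series without it. Ybx2, a germ cell RNA-binding protein gene, stood at 78.3 and 80.6 in DN2b and 63.6 and 61.0 in DN2a. Tmc6 and Tmc8, which encode partner membrane proteins, lie back to back with start sites 122 bp apart and shared their highest peak in 1 DN2b library. They are therefore not independent, and both were open in all 3 IgG libraries.

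DN2a, which the rule did not use, showed 21 of the 40 opened promoters in both its libraries (52.5%, 95% Wilson interval 37.5% to 67.1%), 11 in 1 library and 8 in none. Of all 9699 promoters open in no DN1 library, 60 (0.619%) were open in both DN2a libraries, but 43 of these 60 were opened promoters themselves and 8741 of the 9699 were open in none of the 4 DN1 and DN2b libraries. The choice of members for DN2b peaks therefore bears on this gap, and on those below against the same promoters, and the shares are a description only. The 8 promoters without a DN2a peak were Cd3d, Gm4707, Gpr18, Hdac7, Il21r, Ltb, Sec1 and Trmt1, and none of the 8 had a peak in an LSK library. With DN2a lists also held to 32952 peaks, 15 were open in both DN2a libraries, 8 in 1 and 17 in none. Of the wider list of 239, which contains the 40 and had lower DN2b percentiles (medians 28.2 and 52.2, against 66.7 and 80.3 for the 40), DN2a showed 43 in both libraries (18.0%, 13.6% to 23.4%), 67 in 1 and 129 in none. Of the 331 opened at equal lengths, 128 (38.7%) were open in both equally shortened DN2a lists, against 1.52% of the 12027 promoters open in no DN1 library at equal lengths. The share for the 239 depended on single libraries, at 6.35% without DN2b replicate 1 and 32.1% without DN1 replicate 1. Intervals cover counting error only.

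**Figure D2:**
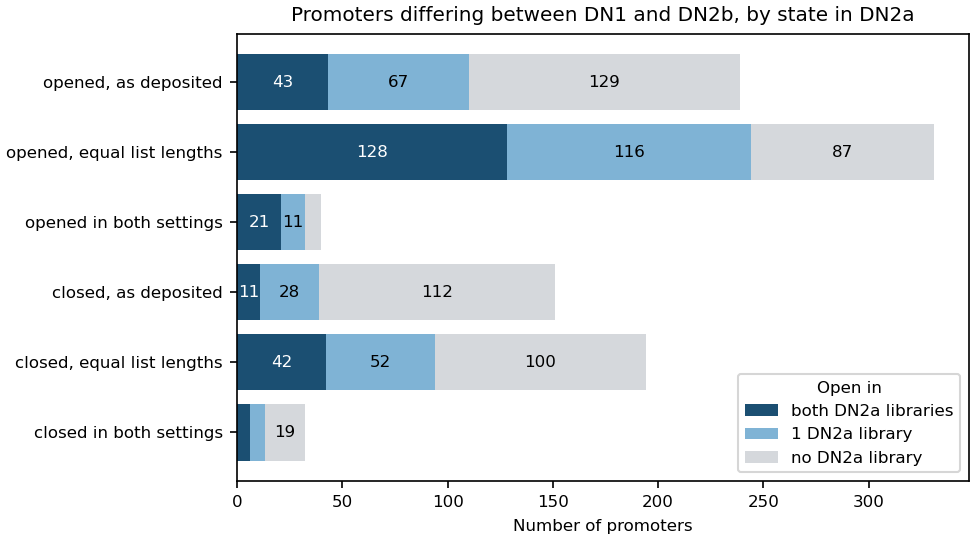
Number of promoters in each set (x axis) that were open in both, in 1 or in neither DN2a library (colours), for promoters opened and closed from DN1 to DN2b; the rows for equal list lengths use equally shortened DN2a lists. Of the opened promoters, DN2a showed 43 of 239 in both libraries as deposited, 128 of 331 at equal lengths and 21 of 40 of those held in both settings.

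LSK and IgG libraries, also unused by the rule, split the opened promoters. In 17 of the 40, no LSK and no IgG library had a peak (27 of 40 with these lists also held to 32952 peaks), against 8798 of the 9699 promoters open in no DN1 library. Of the 17, Cd3e, Cd3g, Il2ra, Sh2d2a, Slc16a5 and Tnfsf11 were open in both DN2a libraries, March9, Mpzl2 and Plin3 in 1, and the 8 named above in none. In the other 23, a peak was called in an LSK or IgG library, and 6 (Csrnp1, Ikzf4, Klhl2, Rnf39, S1pr4 and Snx21) were open in all 3 LSK libraries, against 3 at equal LSK list lengths. That is 15.0% of the 40 as deposited, beside 1.59% of the promoters open in no DN1 library, and 7.50% beside 3.08% at equal lengths. As deposited, these 6 were accessible before culture, in no DN1 library, and again in DN2b. Rnf39, for example, stood at 73.4, 55.4 and 69.4 in LSK, 73.6 and 57.9 in DN2a, and 65.6 and 80.1 in DN2b.

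The closed promoters with the highest DN1 percentiles were Sod2 (93.0 and 93.9) and Prodh (92.0 and 86.9), but the edge of the window bears on both. The Sod2 peak was centred 985.5 bp from the start site in both DN1 libraries and 1005.5 bp from it in both DN2b libraries, so its call rests on the edge alone. Prodh had 2 DN1 peaks in the window in replicate 1. The nearest was 28.5 bp from its start site, and 1 of the 2 overlapped a DN2b peak outside the window. Its 1 peak in replicate 2, at 991.5 bp, lay at the edge, with the nearest DN2b peaks at 1011.5 bp. The opened promoter Phldb2 had the same limit as Sod2, with peaks at 986.5 bp in DN2b and 1006.5 bp or more in DN1. Without such promoters, 39 opened and 30 closed remained in both settings, and 235 and 147 in the deposited lists. This check was added after the data were seen.

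No promoter of the myeloid list, or of any other list, closed in both settings, and the innate immune genes described next were picked from the 32 by their known roles. Ccl24, which encodes an eosinophil-attracting chemokine, stood at 82.6 and 84.2 in DN1 and 30.3 and 40.0 in DN2a, and at 71.3 to 89.8 in LSK and 62.8 to 77.7 in IgG libraries. Prg3, an eosinophil granule protein gene, stood at 80.9 and 83.1 in DN1 and had no DN2a or IgG peak. Fcgr1, which encodes the high-affinity IgG receptor CD64, stood at 86.7 and 74.6 in DN1, 47.4 and 54.4 in DN2a, and 70.1 to 82.3 in LSK. All 3 had peaks in LSK cells, in 2 libraries for Prg3 and in all 3 for the others, and none in DN2b.

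Sirpa, the inhibitory receptor of phagocytes, stood at 80.9 and 73.7 in DN1 and 27.9 and 25.3 in DN2a, and at 93.5 to 95.4 in the 3 IgG libraries, above every other group. Further innate genes in the set, singled out after their values were seen, were Ccl2 (81.5 and 61.8), Clec4a1 (71.6 and 73.7), Cd300c2 (70.7 and 64.6), C3ar1 (67.7 and 61.8) and Clec5a (66.6 and 61.8), with the DN1 percentiles in brackets. They encode a monocyte chemokine, a lectin-like receptor, a receptor of the CD300 family, the receptor for complement fragment C3a and a myeloid lectin-like receptor. Clec5a alone of these 5 had no LSK or IgG peak, and no DN2a library showed Clec4a1, Cd300c2 or Clec5a.

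**Figure D3:**
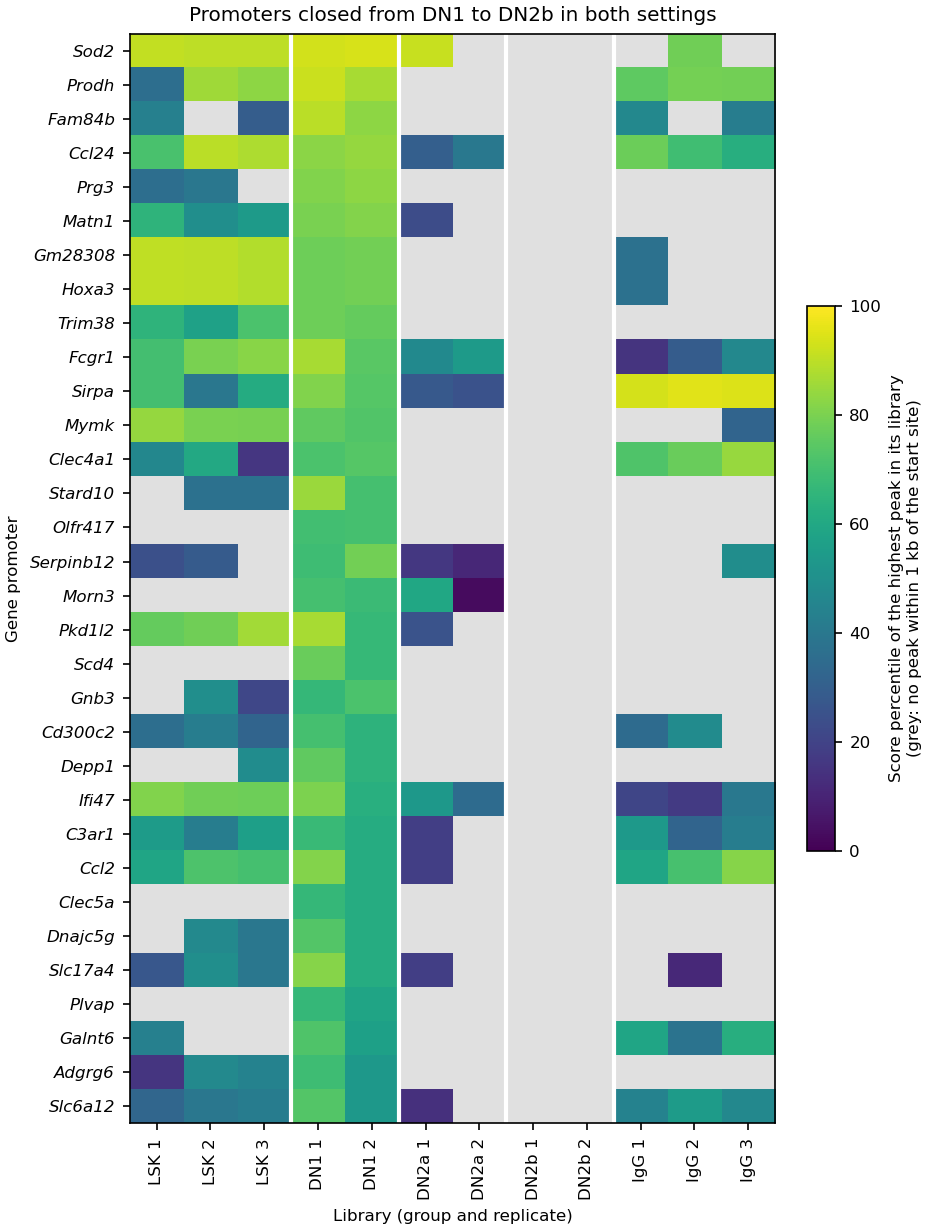
Score percentile of the highest peak within 1 kb of the start site for the 32 promoters closed in both settings (rows, ordered by the lower DN1 percentile) in all 12 libraries (columns), with grey for no peak. Of the 32, 19 were open in all 3 LSK libraries (59.4%, against 91.8% of all promoters open in both DN1 libraries), and 19 have no peak in either DN2a library.

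Other closed promoters with high DN1 percentiles came from varied genes. Hoxa3, a homeobox gene, stood at 77.8 and 78.6 in DN1 and at 88.3 to 90.6 in LSK cells, with no DN2a or DN2b peak within 1 kb. Its start site lies 3 bp from that of the predicted gene Gm28308, which had the same peak in both DN1 libraries, so the pair is 1 observation. DN2b peaks did lie 1544.5 to 1584.5 bp from the Hoxa3 start site. Matn1, a cartilage matrix gene, stood at 79.8 and 81.3 in DN1, Trim38, a ubiquitin ligase gene of innate signalling, at 77.8 and 76.2, and Mymk, a muscle fusion gene, at 75.8 and 72.7. Fam84b stood at 89.8 and 83.1 with no DN2a peak.

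In the deposited LSK lists, 19 of 32 closed promoters were open in all 3 LSK libraries, 6 in 2, 2 in 1 and 5 in none. At equal LSK list lengths, 12 were open in all 3 and 8 in none. Over all 10743 promoters open in both DN1 libraries, 91.8% were open in all 3 LSK libraries and 2.35% in none as deposited. The difference was not tested, and the 32 had lower DN1 percentiles (medians 77.5 and 70.6) than those promoters in general (91.4 and 87.8). The 5 without an LSK peak in the deposited lists were Clec5a, Morn3, Olfr417, Plvap and Scd4. DN2a lacked 19 of the 32 (59.4%, 95% Wilson interval 42.3% to 74.5%), showed 7 in 1 library and 6 in both. Among all 10743 promoters open in both DN1 libraries, 2.97% were open in no DN2a library. Of these 10743, however, 10193 were open in both DN2b libraries too, whereas the 32 were chosen for having no DN2b peak. The choice of members therefore bears on this gap and on those for LSK and IgG cells. The 6 still open in both were Ccl24, Fcgr1, Ifi47, Morn3, Serpinb12 and Sirpa. At equal DN2a list lengths, 28 of 32 were open in no DN2a library and none in both. Of the 151 closed promoters, 112 (74.2%, 66.7% to 80.5%) had no DN2a peak, a share that was 41.5% without DN2b replicate 2. IgG cells, cultured without Notch ligand, showed 10 of the 32 (31.2%) in all 3 libraries and 14 (43.8%) in none, against 75.4% and 10.3% of all promoters open in both DN1 libraries.

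Among gene lists chosen by function, the list of T cell receptor complex and signalling genes did not overlap between the stages at equal list lengths, with 7 of 22 promoters open in each DN1 library and 13 in each DN2b library. Over all 21755 promoters the counts at equal lengths did not overlap either (9453 and 9374, then 9704 and 9671), and 1.52% were opened, so no count of a list is read as particular to it. Cd3d, Cd3e and Cd3g opened in both settings. Cd247 opened in the deposited lists only, and Rasgrp1 and Txk at equal lengths only. Txk, a Tec family kinase gene, was at 39.8 and 27.8 in DN1, 59.5 and 62.5 in DN2a, and 64.4 and 86.7 in DN2b, a difference in rank with a peak in all 4 libraries. As deposited the counts for the list were 12 and 9 in DN1 and 15 and 19 in DN2b. The GIMAP family, GTPases of lymphocyte survival, had 2 of 8 open in each DN1 library and 6 in each DN2b library at equal lengths, and 5 in each DN1 library and 6 and 7 in the DN2b libraries as deposited. Gimap4 opened in the deposited lists (63.1 and 65.0 in DN2b) and Gimap6, Gimap7 and Gimap9 at equal lengths.

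Of the 20 T cell surface molecule genes, Mpzl2 opened in both settings, Cd6, Thy1 and Tigit in the deposited lists only, and Cd27 at equal lengths only. Thy1, which encodes the T cell surface protein THY1, had no DN1 or DN2a peak and stood at 57.5 and 69.3 in DN2b, so it missed the rank limit in replicate 2. In the common gamma chain pathway, 16 and 15 of 22 were open in DN1 and 19 and 21 in DN2b at equal lengths, against 18 and 18, then 22 and 22, as deposited. Il2ra and Il21r opened in both settings and Il2rb and Stat5a in the deposited lists only, the latter at 20.4 and 70.8. Among 20 genes of NK and innate lymphoid cells, 5 and 7 were open in DN1 and 10 and 12 in DN2b at equal lengths, against 13 and 13 and 12 and 16 as deposited. Gzma, which encodes granzyme A, opened at equal lengths only and stood at 43.6 and 33.1 in DN1, 82.0 and 80.7 in DN2a and 88.0 and 96.4 in DN2b.

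Of 27 T lineage factors, 11 and 10 were open in DN1 and 15 and 15 in DN2b at equal lengths, against 17 and 15, then 17 and 23, as deposited. Hdac7 opened in both settings, Ikzf3 in the deposited lists only, and Tcf7 and Tox at equal lengths only. Tcf7 encodes TCF1, an early Notch-induced T cell factor, and its promoter stood at 43.6 and 45.2 in DN1, 59.5 and 59.5 in DN2a and 54.3 and 73.0 in DN2b. Bcl11b, the commitment factor gene, was open in every DN library and so was not counted. Its percentile was 69.7 and 61.8 in DN1, 96.5 and 95.2 in DN2a, and 97.4 and 96.4 in DN2b, without overlap between DN1 and DN2b. Rag1, a recombinase gene, was open in all 4 libraries as deposited, at 29.4 and 53.4 in DN1 and 67.9 and 88.9 in DN2b, and had no LSK or IgG peak.

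Of 30 Notch pathway genes, 15 and 17 were open in DN1 and 19 and 19 in DN2b at equal lengths, against 20 and 19, then 21 and 25, as deposited, and none opened or closed in both settings. The direct targets Hes1 (98.1 and 98.0 in DN1, 94.5 and 98.4 in DN2b) and Nrarp (87.6 and 84.8, then 70.9 and 91.0) overlapped between the stages. The ligand genes Jag2 (deposited lists only) and Dll4 and Jag1 (equal lengths only) were the members counted as opened.

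Progenitor and myeloid lists were counted in the same way, beside 0.892% of all promoters closed at equal lengths, and their counts are likewise not read as particular to them. Of 30 stem and progenitor genes, 15 and 14 were open in DN1 and 10 and 11 in DN2b at equal lengths, but 20 and 18, then 20 and 21, as deposited. Bcl11a, Cd34, Hoxa7 and Hoxa10 closed at equal lengths only. Cd34, a progenitor surface gene, stood at 76.5 and 74.6 in DN1 and still had peaks at 30.8 and 39.9 in DN2b. Of 29 myeloid genes found, 10 and 9 were open in DN1 and 5 and 5 in DN2b at equal lengths, against 14 and 14, then 14 and 19, as deposited. Itgam, Itgax and Tlr4 closed at equal lengths only, with Tlr4 at 77.8 and 73.7 in DN1 and at 32.2 in 1 DN2b library. Mrc1 opened in the deposited lists only.

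Of 16 erythroid and megakaryocyte genes, 4 and 3 were open in DN1 and 2 and 1 in DN2b at equal lengths, against 8 and 6, then 4 and 5, as deposited. Gp9 closed in the deposited lists and Itga2b and Pf4 at equal lengths. The mast cell and basophil list had 6 and 6 of 14 open in DN1 and 3 and 5 in DN2b as deposited, with Csf2rb2 and Il1rl1 closed there, and 3 and 2, then 2 and 2, at equal lengths with none closed. B lineage genes (20) gave 3 and 5 in DN1 and 4 and 4 in DN2b, recombination genes (10) gave 6 and 7, then 7 and 8, and chemokine receptor and homing genes (25) gave 7 and 7, then 9 and 10, all at equal lengths. As deposited these 3 lists gave 10 and 8, then 6 and 10, for B lineage genes, 8 and 8, then 7 and 8, for recombination, and 13 and 8, then 10 and 18, for homing. Housekeeping genes, as a reference, gave 9 and 9 of 10 in DN1 and 10 and 10 in DN2b at equal lengths, with Eef1a1 counted as opened. As deposited they gave 10 and 9, then 10 and 10, with none opened. A change in the share of cells of another type and a change of accessibility per cell cannot be told apart in these bulk libraries.

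**Figure D4:**
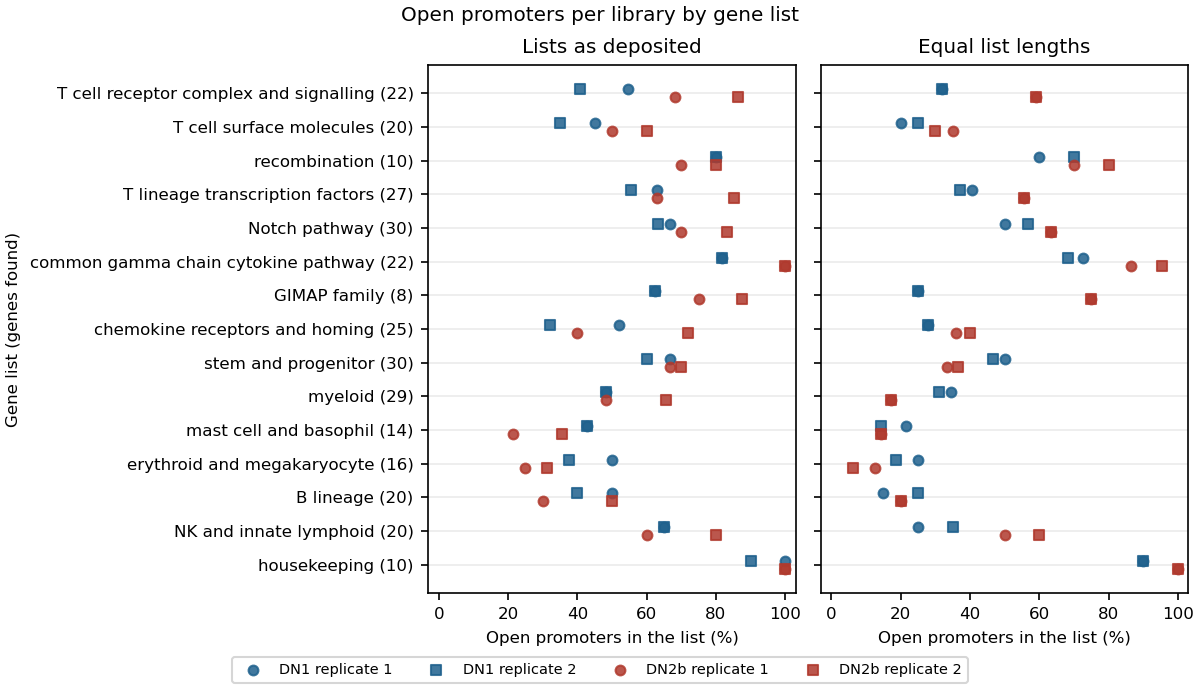
Share of each gene list with an open promoter (x axis, percent) in the 2 DN1 libraries (blue) and the 2 DN2b libraries (red), as deposited (left) and at equal list lengths (right). At equal lengths the T cell receptor list has 7 of 22 open in each DN1 library and 13 in each DN2b library. The myeloid list has 10 and 9 against 5 and 5 of 29. As deposited, these lists have 12 and 9 against 15 and 19, and 14 and 14 against 14 and 19. Over all promoters at equal lengths, 1.52% were opened and 0.892% closed.

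CpG content was measured as the observed over expected ratio in 2 kb centred on the start site, where a high ratio marks the CpG islands of broadly used promoters. The 40 promoters opened in both settings had a median of 0.335 (quartiles 0.199 to 0.523), against 0.637 for the 10193 promoters open in all 4 libraries, 0.200 for the 8741 open in none and 0.478 for all. The 17 of them with no LSK or IgG peak had a median of 0.211, and the other 23 had 0.456. The 239 opened promoters of the deposited lists had a median of 0.543 and the 331 of the equal lists 0.542, so the lower median was found in the 40 and in neither longer list. Closed promoters were lower, at 0.207 (0.184 to 0.293) for the 32 and 0.251 for the 151. The closed median was 0.403 without DN2b replicate 2 and was 0.367 at equal list lengths. A ratio under 0.4 was found in 60.0% of the 40, 84.4% of the 32, 10.9% of promoters open in all 4 and 81.4% of those open in none.

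**Figure D5:**
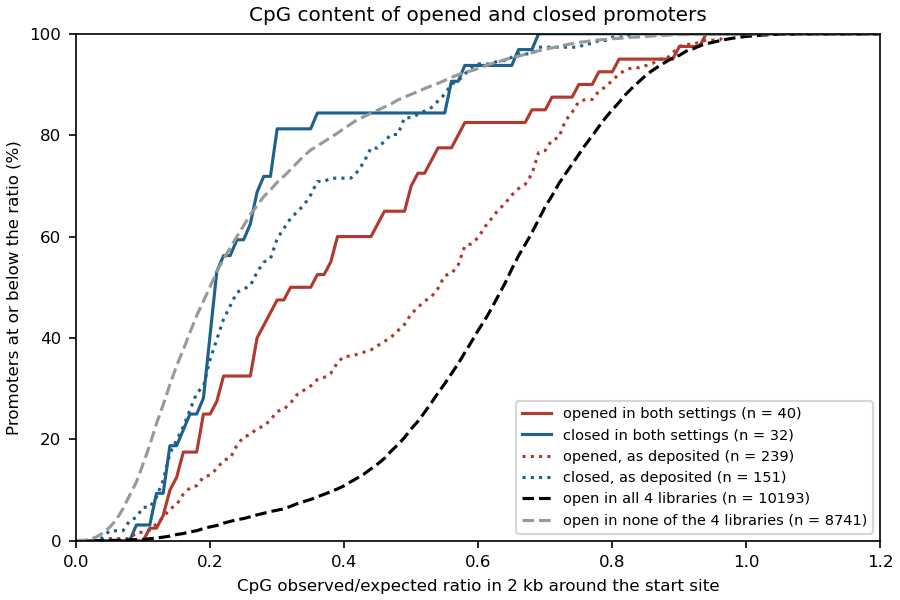
Cumulative share of promoters (y axis, percent) at or below each CpG observed/expected ratio (x axis, 2 kb around the start site) for opened (red), closed (blue), always open (black) and never open (grey) promoters. The curve for the 40 opened in both settings lies left of that for all 239 over most of its range. The curve for the 32 closed promoters crosses that for promoters open in no library. It is lower at a ratio of 0.15 (18.75% against 34.5%) and higher at 0.3 (81.25% against 70.7%).

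The highest peak lay within 200 bp of the start site for 52.5% of the 40 opened, 46.9% of the 32 closed and 75.3% of the promoters open in all 4 libraries. By the gene annotation, the opened peaks fell in untranslated exons for 13 genes, in introns for 11, in a coding exon for 1 and outside genes for 15. For the closed the numbers were 5, 9, 1 and 17. A peak of the other stage within 2.5 kb was present for 18 of 40 opened and 8 of 32 closed promoters. The opened set held 8 of the 1210 promoters on chromosome 9, the neighbouring Cd3 genes among them. The closed set held 8 of the 1112 on chromosome 6, Hoxa3 and Gm28308 among them. Over all promoters, 0.184% were opened and 0.147% closed in both settings. Both chromosomes were picked for holding the highest counts, and no test was made. Neither set had a member among the 643 promoters on chromosome 12, the 513 on chromosome 18 or the 948 on the X chromosome.

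Motif letters were searched on both strands in the highest 150 bp peak of each promoter, over 39 distinct opened and 31 distinct closed peaks. Each share is given beside that of the 235 opened and 147 closed peaks of the deposited lists and that of the peaks of all promoters open in both libraries of the stage. The ETS letters AGGAAG occurred in 38.5% of opened peaks, in 22.6% of the deposited opened peaks and in 20.5% over all DN2b promoters. In closed peaks they occurred in 61.3% and 54.4%, against 21.7% over all DN1 promoters. ETS letters were thus above the share over all in both closed sets, and near it in the wider opened set.

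The E-box letters CAGCTG occurred in 17.9% and 15.3% of the opened sets, against 8.53%. None of the 31 closed peaks held them, but 6.12% of the deposited closed peaks did, against 7.76%. The C/EBP letters TTGCNNAA occurred in 16.1% and 7.48% of the closed sets, against 3.48%, and in 2.56% and 2.98% of the opened sets, against 3.23%. The RUNX letters TGTGGT occurred in 29.0% and 23.1% of the closed sets, against 7.65%, and in 15.4% and 12.3% of the opened sets, against 7.74%. For the C/EBP and RUNX letters, both closed sets were above the share over all. The RUNX letters were above it in both opened sets too, whereas the C/EBP letters were slightly below it there.

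The AP-1 letters TGANTCA occurred in 10.3% and 4.26% of the opened sets, against 2.33%, and in 16.1% and 7.48% of the closed sets, against 2.37%. The GATA letters AGATAA occurred in 7.69% and 4.68% of the opened sets, against 2.14%, and in 9.68% and 5.44% of the closed sets, against 2.02%. The TCF1 and LEF1 letters CTTTGA occurred in 5.13% and 11.5% of the opened sets, against 5.59%, and in 9.68% and 7.48% of the closed sets, against 5.54%. The PU.1 letters GAGGAAGT, which contain the ETS letters, occurred in 0 and 1.28% of the opened sets, against 2.31%, and in 6.45% and 12.2% of the closed sets, against 2.91%.

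For RBPJ, the DNA-binding partner of Notch, the letters TGGGAA were found in 7.69% and 11.5% of the opened sets, against 10.8%. In the closed sets they were found in 9.68% and 14.3%, against 11.2%. Among members held in both settings these were 3 of 39 opened and 3 of 31 closed peaks, so no direction is read from them. These are counts over few peaks in windows of different base composition, and no test was made. Il2ra and Ltb, printed above, are opened promoters with ETS letters, and Prg3 and Clec5a are closed ones with both ETS and RUNX letters.

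The pattern of a promoter also depended on how the window was drawn. There were 6 alternative settings of list length, score threshold, window and start site. Equal list lengths were part of how the members were chosen, so that setting could not change a call. Of the 40 opened promoters, 17 kept the full pattern under all 6 settings. They included Acadvl, Camkv, Cd3e, Cd3g, Dgka, Gpr18, Ikzf4, Il21r, Il2ra, Klhl2, Mcub, Plxdc2, Ppp1r18, Sh2d2a, Slc16a5 and Tnfrsf8. Of the 32 closed promoters, 13 did, namely C3ar1, Ccl2, Ccl24, Cd300c2, Clec4a1, Depp1, Fcgr1, Gnb3, Olfr417, Plvap, Prg3, Sirpa and Slc6a12. The opened set also held Csrnp1, Cd3d, Gm4707, Hdac7, Kcng3, Kcnk7, Ltb, March9, Mmp27, Mpzl2, Pcdh7, Phldb2, Plin3, Plpp3, Rnf39, S1pr4, Sec1, Snx21, Tmc6, Tmc8, Tnfsf11, Trmt1 and Ybx2. The closed set was completed by Adgrg6, Clec5a, Dnajc5g, Fam84b, Galnt6, Gm28308, Hoxa3, Ifi47, Matn1, Morn3, Mymk, Pkd1l2, Prodh, Scd4, Serpinb12, Slc17a4, Sod2, Stard10 and Trim38.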

How the data were processed

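DNase-seq peak lists of 2 DN1 and 2 DN2b libraries were compared, with 2 DN2a, 3 LSK and 3 IgG libraries as further readouts. The authors trimmed paired-end reads, aligned them to mm10 with BWA 0.7.12 and called peaks with hotspot2, and the lists are 1 per library (SAMtools 1.2 is named in the submitters' processing notes). Each deposited peak carries a score, in whole numbers between 1 and 150, whose meaning is not given in the sources used here, and only its order within a list was used. Depth is unknown, since the lists carry no read totals. A longer list can hold more weak peaks, so each comparison was made as deposited and with the 32952 highest-scoring peaks of each list, the length of the shortest, with ties taken in seeded random order. Chromosomes 1 to 19 and X were used.

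Start sites were the 5' ends of 21755 protein-coding genes of GENCODE M21, and sequence came from GRCm38, the assembly behind mm10. Coordinates are 1-based. Gene Clec7a was not matched. Analysis used Python 3.11.15, pandas 2.3.3, NumPy 2.4.6, SciPy 1.17.1, pyfaidx 0.9.0.4 and matplotlib 3.10.9. Calling was tested on simulated lists, with peaks planted inside the window at the same promoters in both replicates of a stage. That checks the code and does not cover weak peaks, window edges or unequal list lengths. Named genes were the 6 whose tracks the study drew, most list members opened or closed, and the 12 highest in each direction held in both settings. List members called in 1 setting only and not described above were Pou2af1 and Ifng (opened) and Rhoh (closed) as deposited. At equal lengths they were Blk, Il12rb1 and Il18r1 (opened) and Ccr1 (closed). Other members are named to give the sets, and 1 opened promoter is counted but not reported here. Members and lists were chosen with earlier results of these data known. Replicate numbers follow deposition order and pair nothing. Alternatives were the upper 50% of each list, windows of 500 bp and 2.5 kb, every transcript start, any overlap, ties kept or dropped and each library left out.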

Additional observations from a re-analysis of the deposited data

How the results depend on the processing

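Under equal list lengths the share of opened promoters that both DN2a libraries showed moved to 38.7%, the share of closed promoters that no DN2a library showed to 51.5% and the closed CpG median to 0.367. With the upper 50% of each list, 154 promoters were opened and 89 closed both there and at equal lengths, and the closed CpG median was 0.302. The 2.5 kb window moved the opened CpG median to 0.492. Leaving out 1 library gave ranges of 283 to 914 opened, 168 to 533 closed, 56 to 151 opened in both settings and 35 to 113 closed in both. The DN2a shares ranged from 6.35% to 32.1% for opened and from 41.5% to 86.7% for closed promoters, and the CpG medians from 0.504 to 0.546 and from 0.270 to 0.403. Every such omission relaxes the rule, and the cause of the other shifts was not tested. Tied peaks at the rank limit, kept or dropped, gave 41 or 40 opened and 32 or 30 closed in both settings. Single promoters were followed through the alternatives only for the 72 held in both settings and for Bcl11b, Hes1, Nrarp and Rag1. None of these reversed direction. For the 72, leaving out a library or equal list lengths could not have changed the call, since these promoters were chosen on all 4 libraries and on both list lengths. The balance of counts did reverse. Without DN2b replicate 2, opened and closed promoters numbered 283 and 533 (67 and 113 in both settings). The 11013 open promoters of the remaining DN2b library lay below the DN1 mean. CpG medians were not recomputed for every transcript start. No paired analysis was possible because the labels give no replicate numbers.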
